A study of Rattus norvegicus with 2 samples.

Results

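The 42 genes described here encode Toll-like receptors and their co-receptors, the adaptors and kinases behind them, NF-kB subunits with their regulators, and the cytokines, cytokine receptors and cyclooxygenase tied to this pathway. They were listed by name for their role in it. Through the RefSeq accession printed for each array feature, 27 of the 42 were matched to 33 probes on 87 of the 43379 non-control features. The other 15 (Tlr1, Tlr5, Tlr7, Tlr10, Irak1, Irak3, Irak4, Traf6, Ticam1, Tollip, Nfkb1, Relb, Nfkbia, Tnfaip3 and Il1r1) were not matched and are not analysed here. The adaptor and kinase group was therefore represented by Myd88 alone, 1 of its 7 genes. The matched genes were 7 of 11 receptors, 5 of 9 NF-kB genes and 14 of 15 genes of the cytokine group.

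Toll-like receptors recognise molecular patterns of microbes and of damaged cells, and pass the signal through the adaptor MyD88 to the IKK kinase complex. IKK marks the inhibitory IkB proteins for destruction, which frees NF-kB dimers to enter the nucleus and to switch on genes of cytokines such as TNF, interleukin 1 and interleukin 6. In blood, monocytes and neutrophils are the main carriers of this machinery, and platelets and lymphocytes carry part of it.

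The study asked which blood genes respond to lavender oil (LO, from Lavandula angustifolia) taken by mouth. Male rats aged 7 weeks received LO at 5 mg/kg in 10% ethanol, or 0 mg/kg in the same 10% ethanol (the control), into the stomach daily for 13 days, and blood was taken on day 14. The rats were 12 in all, named F334 in the growth notes and Fischer, F334 in the paper but Wistar in the strain label; the blood came from the heart by the paper, and from the heart and the portal vein by the labels. RNA of the 6 rats of each group was combined into 1 pool, and both pools were hybridised together on 2 Agilent rat arrays, array 1 with LO in Cy5 and control in Cy3, and array 2 with the dyes exchanged. Both arrays hold the same RNA, so they are 1 replicate, and no value below carries the spread between rats. In pooled whole blood, fewer cells of a type and less RNA per cell cannot be told apart.

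Each probe has a processed signal for each pool on each array (arbitrary units), and the software marks whether that signal was well above its background. The share of features so marked ran from 44.8% to 50.3% over the 4 channels (pool by array), and 15386 of 41009 probes (37.5%) were above background in all 4. The mean of the log2 LO/control ratios of the 2 arrays is called the LO part, and their half-difference the dye part, positive where Cy5 was brighter. Over the 15386 probes the ratios of the 2 arrays correlated at r = -0.70 (Spearman rho -0.68; across probes of the same RNA), and the dye part exceeded the LO part in size in 75.6%. The SD over probes was 0.297 for the dye part and 0.124 for the LO part. The methods state the dyes of each array, so the LO/control direction was kept.

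No member probe met the selection rule for up- or down-regulation, an error-model p under 0.01 on both arrays with the same direction of LO/control. The rule was met by 9 of all 41009 probes (0.0219%) and by 0 of the 33 member probes. With the limit at 0.05, 0 members met it as well, though the share over all probes at that limit is not given. A second selection, which asked for Cy5/Cy3 in the deposited ratios to reach 1.5 on either array while not exceeding 0.75 on its dye swap (the same LO/control direction on both), took 834 of 43379 features (1.92%) and 0 of the 87 member features. The members past the p limit on both arrays were Il1a and Il6, 2 of 33 against 2.64% of all probes, and each pointed to Cy3 on both arrays rather than to one pool. On array 1 alone, 2 members passed (Il1a, Il6; background 5.95%), and on array 2 alone 4 passed (Il1a, Il6, Il10ra, Il18; background 6.29%). This p reflects the error of single spots, without any correction for testing many probes.

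Of the 33 member probes, 21 were well above background in all 4 channels, against the 37.5% of all probes given above and 49.3% of the probes that could be named. They represented 17 genes. Of the other 10 matched genes, Tlr3, Ly96, Tnf and Ptgs2 were above background in no channel, and Tlr4, Ikbkg, Il1a, Il6, Il10ra and Il18 in some. Among the 21 probes the LO part was above 0 in 6 and below 0 in 15, with a median of -0.03, beside 51.3% below 0 and a median of -0.003 over all 15386 probes above background. With normexp background correction and loess the split was 7 to 14, and with median centring of background-subtracted signals it was 4 to 17, where 73.7% of the 15386 were below 0. In each of the 21 the LO part was smaller than its propagated spot error, as in 89.0% of the 15386, so none of these directions stands beyond the error. The count of LO parts over 1.5-fold was 0 of 21 (background 0.123%), and that of dye parts over 1.5-fold was also 0 of 21 (background 6.49%).

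**Figure D1:**
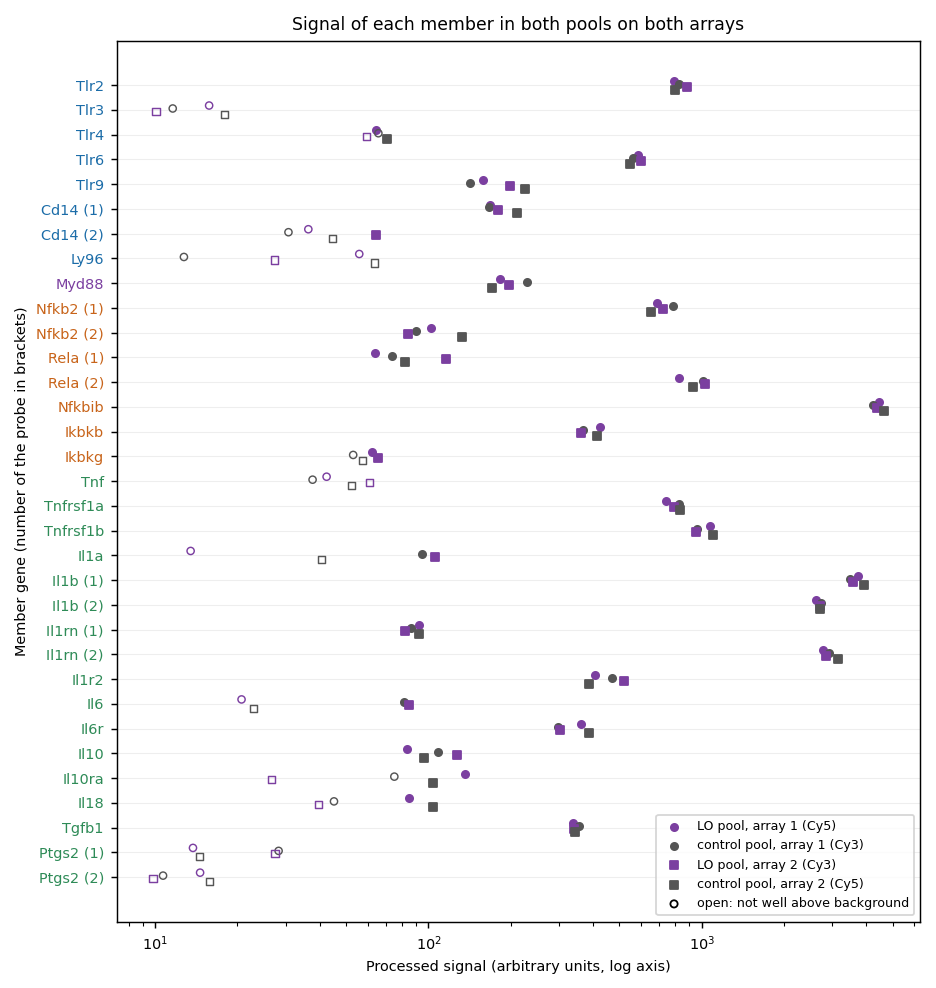
Processed signal (horizontal log axis, arbitrary units) of each of the 33 member probes in the LO pool (purple) and the control pool (grey) on array 1 (circles) and array 2 (squares), with open symbols where the signal was not well above background; gene names are coloured by group and a number marks the probe where a gene has several. The 4 symbols of most of the 21 probes above background throughout lie close together. Some dimmer ones spread more, such as the first Rela probe (63.5 to 116) and the second Nfkb2 probe (84.5 to 133). Those of Il1a, Il6, Il10ra and Il18 lie further apart, as do those of the dim Ly96.

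Among the receptors, TLR2 and its partner TLR6 recognise bacterial lipopeptides. Tlr2 gave a signal of 790.5 in LO and 823 in control on array 1, and 885 in LO and 799.6 in control on array 2. The pool with the higher signal changed with the array, and the LO part was 0.04 ± 0.15 (log2, propagated spot error). Tlr6 gave 584 in LO and 559 in control on array 1, and 601 and 548 on array 2. Tlr6 was the one member of the 21 higher in LO on both arrays, with ratios of 0.06 and 0.13 and an LO part of 0.10 ± 0.15; its LO part stayed above 0 under both other scalings (0.06 and 0.03), while that of Tlr2 was below 0 under both (-0.04 and -0.06).

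TLR9 senses unmethylated CpG DNA inside the cell. Tlr9 gave 159 in LO and 142 in control on array 1, and 199 in LO and 226 in control on array 2. The pools changed order between arrays, with an LO part of -0.01 ± 0.19. CD14 is the co-receptor that hands lipopolysaccharide to TLR4 and is a marker of monocytes. Its first probe gave 168 in LO and 167 in control on array 1, and 180.1 and 211 on array 2. The LO part was -0.11 ± 0.18, among the 3 lowest of the 21, and rested on array 2, since the ratio of array 1 was 0.01. The second Cd14 probe gave 36.3 and 30.7 on array 1 and 64.2 and 44.7 on array 2, in the same order of LO and control. It was above background only in LO on array 2, so its ratio is not read as a fold. The 2 probes of Cd14 differed in the sign of the LO part (-0.11 and 0.38). The value of the second rests on signals near background, with an error of 0.47, and was 0.08 with normexp and loess. The mean of the 2 probes, 0.14, carries the same limit. The first probe was at -0.01 with normexp and loess.

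TLR4 is the lipopolysaccharide receptor, and LY96 (MD-2) is the protein that binds lipopolysaccharide for it. Tlr4 gave 64.4 in LO and 65.6 in control on array 1, and 59.1 and 70.4 on array 2, above background only where the pool carried Cy5. Its LO part was -0.14 ± 0.31, with ratios of -0.03 and -0.25. Tlr3, the receptor of double-stranded RNA, had signals of 10.1 to 17.95 and was not above background in any channel. Ly96 was dim in all 4 channels as well, at 55.8 in LO and 12.7 in control on array 1 and 27.3 and 63.4 on array 2. The Cy5 signal was the higher on both arrays for Ly96, and no fold is given where both pools are dim.

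The marker genes of monocytes and neutrophils, which carry these receptors, were measured beside them. All 5 listed monocyte markers (Adgre1, Cd68, Csf1r, Cx3cr1 and Lyz2) were above background in all 4 channels, with LO parts of -0.20 to -0.06 (median -0.13). Their summed signal was 28999 and 31228 in LO on the 2 arrays and 33627 and 35009 in control, and all 5 were below 0 under both other scalings, and 3 of the 5 were lower in LO on both arrays. The 4 matched of 7 neutrophil markers (Cxcr2, Mmp8, S100a8 and S100a9) had LO parts of 0.05 to 0.12, with summed signals of 31897 and 32555 in LO and 31336 and 29784 in control, though 2 of the 4 were higher in LO on both arrays, and with median centring 2 of the 4 were below 0. The part of cell numbers in the values of the receptors was not tested. Of the other blood lists, T cell markers ran from 0.05 to 0.11 (4 of 5 matched above background, Cd4 in no channel). With median centring 2 of the 4 were below 0 (median -0.01). The 1 matched B cell marker of 5 listed was Cd79b at 0.10, which was 0.007 with median centring. Platelet markers had a median of 0.02 (4 matched of 5 listed) and red cell markers a median of -0.07 (3 matched of 8 listed, on 4 probes). With median centring all 4 platelet probes and all 4 red cell probes were below 0 (medians -0.09 and -0.20). Of tissue lists, 2 of 2 matched endothelial markers were above background (Kdr and Pecam1, median 0.10, which was -0.008 with normexp and loess and 0.003 with median centring), whereas 1 of 4 cardiomyocyte markers (Actc1) and 1 of 3 hepatocyte markers (Alb) were, with Myh6, Nppa and Ttr above background in no channel.

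MyD88 is the adaptor used by nearly all Toll-like receptors and by the interleukin 1 and interleukin 18 receptors. Myd88 gave 182 in LO and 230.0 in control on array 1, and 197 in LO and 171 in control on array 2. The ratios were -0.33 and 0.21, in opposite directions and both with the lower signal in Cy5. The LO part was -0.06 ± 0.17 and the dye part -0.27; with normexp and loess the LO part was 0.02.

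**Figure D2:**
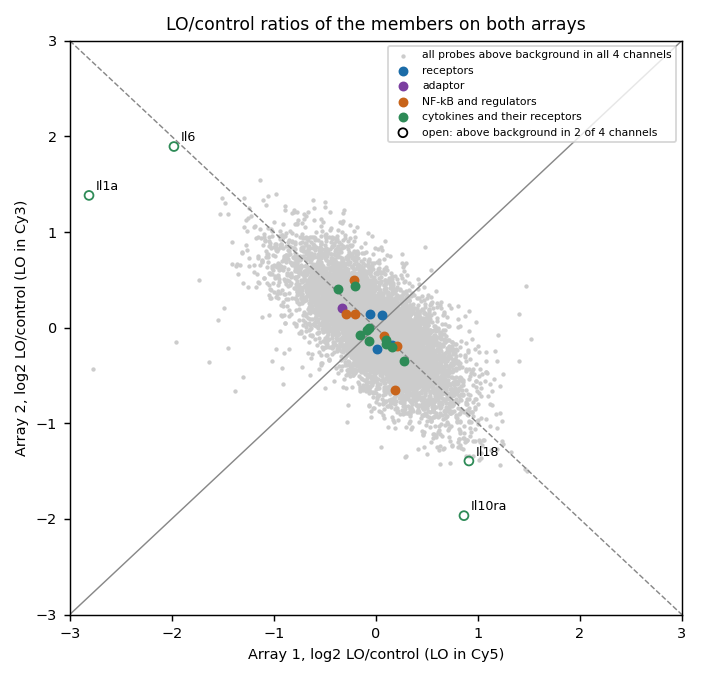
log2 LO/control ratio on array 1 (horizontal) against array 2 (vertical) for member probes, coloured by group. Light grey points are all 15386 probes above background in all 4 channels, and filled circles are the 21 member probes among them. Open circles are the members past the p limit on an array, which were above background in 2 of 4 channels. The other member probes, Ly96 among them, are not drawn, and the grey points hold no probes with the background status of the open circles. An LO difference would lie along the solid line and a dye difference lies along the dashed one, where Il1a, Il6, Il10ra and Il18 are found at the far ends.

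NF-kB subunits and their regulators were matched through Nfkb2, Rela, Nfkbib, Ikbkb and Ikbkg. NFKB2 (p100, cut to p52) is the DNA-binding subunit of the alternative NF-kB pathway, and RELA (p65) is the activating subunit of the classical one. Nfkb2 and Rela had 2 probes each, all above background in all 4 channels. The first Nfkb2 probe gave 683 in LO and 785 in control on array 1, and 719 and 651 on array 2, an LO part of -0.03 ± 0.15. The second Nfkb2 probe gave 102.5 in LO and 89.7 in control on array 1, and 84.5 and 133 on array 2. This was the lowest LO part of the 21 (-0.23 ± 0.25) and also the highest dye part (0.42). It rested on array 2, with a ratio of -0.65 there against 0.19 on array 1, and the 2 Nfkb2 probes had opposite order of the pools on each array.

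Rela likewise differed between its probes. The first Rela probe gave 63.5 in LO and 73.6 in control on array 1, and 116 and 81.9 on array 2, which made the highest LO part of the 21 (0.14 ± 0.26). The second Rela probe gave 823 and 1007 on array 1 and 1030.1 and 932 on array 2, with an LO part of -0.07 ± 0.15. Both probes were lower in LO on array 1 and higher on array 2, but their LO parts differed in sign. The mean over the probes of a gene was therefore near 0 for Rela, at 0.04, and was -0.13 for Nfkb2.

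IkB-beta, encoded by Nfkbib, holds NF-kB in the cytoplasm. Nfkbib gave 4470.0 in LO and 4222 in control on array 1, and 4380.2 and 4639 on array 2. The ratios were 0.08 and -0.08, which left an LO part of -0.0003 ± 0.14, the smallest of the 21. IKK-beta (Ikbkb) is the kinase that marks IkB, and NEMO (Ikbkg) is the regulatory subunit that holds the IKK complex together. Ikbkb gave 424 in LO and 367 in control on array 1, and 363 and 413 on array 2, again in opposite directions, with an LO part of 0.01 ± 0.15. Ikbkg gave 61.9 in LO and 53.0 in control on array 1, and 65.3 and 57.3 on array 2. It was the one member above background in one pool and not in the other on both arrays, in LO on 2 of 2 and in control on 0 of 2. Its LO part of 0.21 ± 0.31 was within its spot error and was 0.02 with normexp and loess, and no lower limit of a fold is drawn from it.

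**Figure D3:**
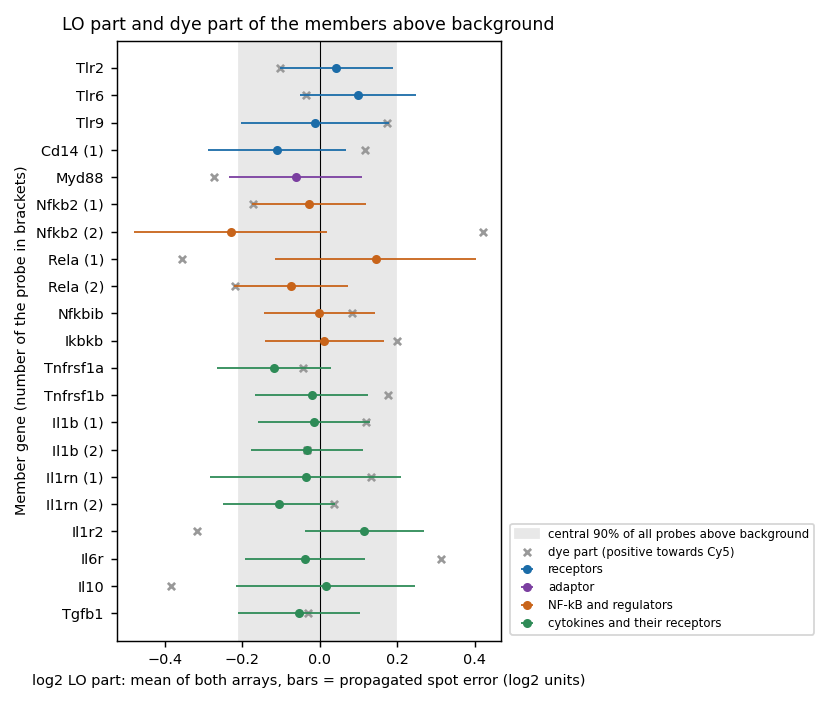
LO part (points, log2 units, bars are the propagated spot error) and dye part (crosses) of the 21 member probes above background in all 4 channels, coloured by group, with the central 90% of the LO parts of all such probes shaded (-0.21 to 0.20). Every bar of a member crosses 0, and the crosses spread wider (SD 0.22) than the points (SD 0.084).

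NF-kB dimers bind the κB motif in DNA, and the promoters of measured members that hold a match to it are shown here. The κB consensus of 10 bases was searched on both strands in the 250 bases before the RefSeq start (GRCr8). It was found in 1185 of 33469 promoters (3.54%), and in 7 of the 35 members with a promoter entry (20%): Il1r1, Il6, Irak3, Nfkb2, Nfkbia, Tlr2 and Tnfaip3. Of the 23 measured members with an entry, 3 held it, and their sequences from RefSeq follow, 5′ to 3′ on the strand of the gene, with the match in capitals (in Tlr2 the capitals cover overlapping matches). Il6 is shown at chr4:5894594-5894683 (minus strand), bases 108 to 19 before the start; Nfkb2 at chr1:255108314-255108373 (plus strand), bases 60 to 1; and Tlr2 at chr2:171504713-171504803 (minus strand), bases 246 to 156. A match is a description of the letters and not of binding. The members were listed for their role in this pathway, so their share of matches is not a result of these data.
Il6: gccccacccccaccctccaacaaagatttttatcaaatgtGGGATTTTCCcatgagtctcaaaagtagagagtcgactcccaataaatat
Nfkb2: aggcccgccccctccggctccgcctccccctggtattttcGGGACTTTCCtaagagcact
Tlr2: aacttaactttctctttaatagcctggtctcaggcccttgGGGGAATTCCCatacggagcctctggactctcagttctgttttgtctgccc

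The signs of the LO parts of the 3 genes with these promoters depended in part on the scaling. Tlr2 had an LO part of 0.04, the Nfkb2 probes -0.03 and -0.23, and Il6, which is dim and described below, -0.04, none beyond its error. With normexp and loess Tlr2 was at -0.04, the Nfkb2 probes at -0.04 and -0.17, and Il6 at -0.03. With median centring Tlr2 was at -0.06, the Nfkb2 probes at -0.11 and -0.25, and Il6 at 0.20. The ratios of Il6 set a signal against one not above background, so no direction is read from them.

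Both receptors of TNF were above background in all 4 channels, while for Tnf, the cytokine itself, the share of spots above background exceeded 0.5 in no channel. The 10 printed Tnf spots left 8 after flagged spots were dropped, and on array 1 none of the 8 was above background in either pool. On array 2, 4 of 8 were in LO and 1 of 8 in control. The mean signal was 42.4 in LO and 37.7 in control on array 1, and 60.8 and 52.1 on array 2, and no fold is given. Tnfrsf1a, the receptor that carries most TNF signalling, gave 739 in LO and 825 in control on array 1, and 790.0 and 833 on array 2. It was lower in LO on both arrays, with an LO part of -0.12 ± 0.15, the lowest after Nfkb2, and stayed below 0 under both other scalings (-0.09 and -0.19). Tnfrsf1b, the second TNF receptor, gave 1071 in LO and 961 in control on array 1, and 956 and 1096 on array 2, an LO part of -0.02 ± 0.15 with opposite directions.

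Interleukin 1-beta is the main secreted interleukin 1 of myeloid cells. The first Il1b probe, printed on repeated spots, gave 3740.1 in LO and 3479 in control on array 1, and 3589.7 and 3940.3 on array 2. Of its 9 usable spots, all 9 were higher in LO on array 1 and all 9 lower on array 2, which is a dye part of 0.12 with a spot SD of 0.019 and an LO part of -0.02 with a spot SD of 0.027. The spots of 1 probe share the same RNA and sequence, so their SD describes the print and not the rats. The second Il1b probe gave 2610.3 in LO and 2732 in control on array 1, and 2715 and 2718 on array 2. It was lower in LO on both arrays by less than its error (LO part -0.03 ± 0.14), and its LO part was 0.01 with normexp and loess.

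The interleukin 1 receptor antagonist (Il1rn) and the decoy receptor (Il1r2) both restrain interleukin 1. The second Il1rn probe gave 2788 in LO and 2922 in control on array 1, and 2856 and 3149 on array 2. It was lower in LO on both arrays, with an LO part of -0.10 ± 0.14 that lay at -0.13 and -0.24 under the other scalings. The first Il1rn probe gave 92.2 and 86.2 on array 1 and 82.0 and 92.2 on array 2, with opposite directions and an LO part of -0.04 ± 0.25. Il1r2 gave 408 in LO and 469 in control on array 1, and 521 and 387 on array 2. Its LO part of 0.12 ± 0.15 was the second highest of the 21 and kept its sign under both other scalings (0.14 and 0.11). It rested on array 2, where the ratio was 0.43 and the authors' Feature Extraction p was 0.0478, against -0.20 on array 1.

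The remaining members of the cytokine group above background throughout were the interleukin 6 receptor, interleukin 10 and TGF-beta 1, the latter pair known for damping immune responses. Il6r gave 361 in LO and 298 in control on array 1, and 304 and 388 on array 2. The Cy5 signal was the higher each time (dye part 0.31), and the LO part was -0.04 ± 0.16. Il10 had 7 usable spots, all above background in all 4 channels, with mean signals of 83.8 in LO and 108 in control on array 1, and 127 and 96.1 on array 2. Of these spots 6 were lower in LO on array 1 and all 7 were higher on array 2. That is the lowest dye part of the 21 (-0.38, spot SD 0.223) beside an LO part of 0.02 ± 0.23. Tgfb1 had 9 usable spots, with mean signals of 337 in LO and 357 in control on array 1, and 339.7 and 345 on array 2. Its ratios were -0.08 and -0.02, the same direction on both arrays but within the error (LO part -0.05 ± 0.16), and of its 9 spots 8 were lower in LO on array 1 and 6 on array 2.

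**Figure D4:**
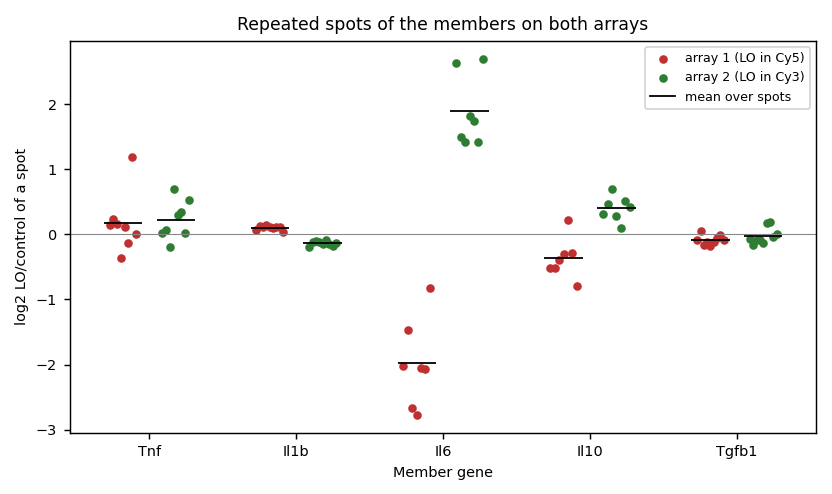
log2 LO/control ratio of each usable spot of the member probes printed repeatedly, on array 1 (red) and array 2 (green), with the mean over spots as a bar; n is 8 spots for Tnf, 9 for Il1b, 7 for Il6, 7 for Il10 and 9 for Tgfb1. The 7 Il6 spots lie below -0.8 on array 1 and above 1.4 on array 2, while those of Il1b and Tgfb1 stay close to 0.

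Il1a and Il6 had large ratios on each array that changed sign with the dyes. Interleukin 1-alpha is an alarm cytokine kept inside cells, and interleukin 6 drives the acute-phase response. Il1a gave 13.5 in LO and 94.6 in control on array 1, and 106 in LO and 40.6 in control on array 2. Only the Cy3 channel was above background on each array, so the same pool was bright in one dye and dim in the other. Its ratios were -2.81 and 1.38, to which the authors' Feature Extraction software gave p = 0.000126 and 0.00249. The LO part of -0.71 ± 0.43 was larger than its spot error, but it compared dim Cy5 signals. In the Cy3 channels LO stood at 106 (array 2) and control at 94.6 (array 1), processed signals that were not scaled between the arrays. The LO part of Il1a also depended on the scaling, at -0.06 with normexp and loess and -1.31 with median centring.

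Il6 was likewise above background in Cy3 only. Its 7 usable spots averaged 20.7 in LO and 81.6 in control on array 1, and 85.1 in LO and 22.9 in control on array 2. All 7 spots were above background in Cy3 and none in Cy5, in either pool. The spot ratios ran from -2.77 to -0.82 (median -2.05) on array 1 and from 1.42 to 2.70 (median 1.74) on array 2. By the authors' Feature Extraction software, p was under 0.01 in 5 of 7 spots on array 1 and in 7 of 7 on array 2. The LO part was -0.04 ± 0.43 (0.20 with median centring) and the dye part -1.94; each ratio sets a signal against one not above background, so the LO part does not show whether the pools differed.

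Il10ra and Il18 were the mirror image, above background only in Cy5. IL10RA is the ligand-binding chain of the interleukin 10 receptor, and interleukin 18 induces interferon-gamma. Il10ra gave 137 in LO and 75.0 in control on array 1, and 26.7 in LO and 104 in control on array 2. The ratios were 0.86 and -1.97, for which the authors' Feature Extraction p was 0.0146 and 0.000248, and the LO part was -0.55 ± 0.32. Both channels above background were in Cy5, at 137 in LO on array 1 and 104 in control on array 2. These processed signals were not scaled between the arrays, so their order is not set against the LO part. The LO part of Il10ra was -0.08 with normexp and loess and -0.37 with median centring. Il18 gave 84.9 in LO and 45.1 in control on array 1, and 39.6 and 104 on array 2. The authors' Feature Extraction p was 0.0473 and 0.00222, and the LO part was -0.24 ± 0.32 beside a dye part of 1.15.

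**Figure D5:**
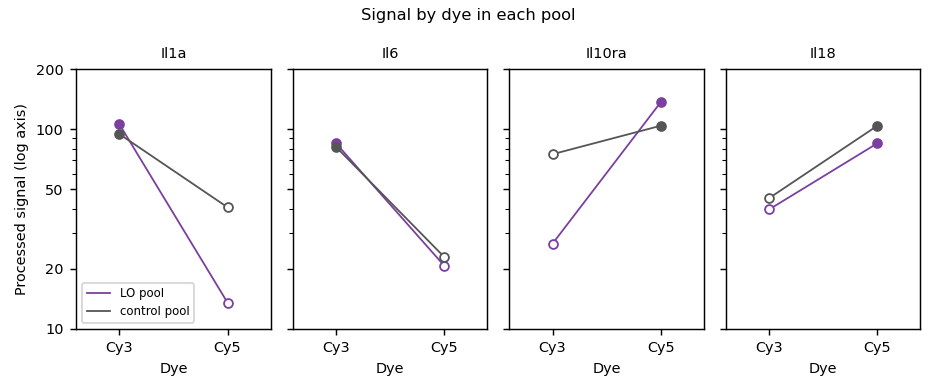
Processed signal (vertical log axis, arbitrary units) of Il1a, Il6, Il10ra and Il18 in Cy3 and in Cy5, with a line for each pool; filled points were well above background. Il1a and Il6 are above background only in Cy3 and Il10ra and Il18 only in Cy5, in both pools alike.

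Ptgs2, the inducible cyclooxygenase, was dim in both of its probes. The first gave 13.7 in LO and 28.3 in control on array 1, and 27.4 and 14.5 on array 2, and the 10 spots of the second averaged 9.82 to 15.8. No channel was above background, and no fold is given.

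The ratios of the 21 member probes above background in all 4 channels can be set beside those of all such probes. They went in opposite directions on the 2 arrays in 16 of the 21, near the share of 75.6% over the 15386 probes. The other 5 were Tlr6, higher in LO on both arrays, and Tnfrsf1a, 1 probe each of Il1b and Il1rn, and Tgfb1, lower on both. The median size of the dye part was 0.173 and that of the LO part 0.043, beside 0.150 and 0.061 over the 15386, and the ratios of the 2 arrays correlated at r = -0.80 over the 21 probes (several of them of the same gene). The dye part pointed to Cy5 in 10 and to Cy3 in 11. By group, the median LO part was 0.02 over 4 receptor probes, -0.01 over 6 NF-kB probes and -0.03 over 10 probes of the cytokine group.

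A wider list of 93 genes of the same pathways outside the members held 49 matched genes on 59 probes, 30 of them above background in all 4 channels. The selection rule was met by 0 of the 59 in either direction. The LO part of the 30 was above 0 in 13 and below in 17 (median -0.01), and none was over 1.5-fold. At the ends of the range stood Il4r, a receptor chain for interleukin 4, at 0.12 ± 0.15, and Fos, a subunit of the AP-1 factor, at -0.46 ± 0.25. Fos gave 96.2 in LO and 88.3 in control on array 1, and 80.5 and 166 on array 2, so its value rested on array 2, where the authors' Feature Extraction p was 0.00142 against 0.751 on array 1. Past the p limit on both arrays, towards the same dye, was 1 of the 59 probes, against 2.64% of all probes. It was that of Jun, the partner of Fos in AP-1. The Jun probe was above background in 2 of 4 channels, so its ratios rest in part on signals near background. Jun gave 118 in LO and 29.2 in control on array 1, and 29.6 and 122 on array 2. As with Il10ra, the Cy5 signal was the higher in each case, which left an LO part of -0.01 and a dye part of 2.03.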

How the data were processed

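The authors pooled the RNA of 6 rats per group, hybridised both pools on 2 arrays with the dyes exchanged, and processed each slide image with Agilent Feature Extraction 11.0.1.1. The deposited scanner output holds intensity values (median and background-subtracted signals, and processed signals after LOWESS dye normalization), the log10 ratio of Cy5 over Cy3, its error (read as a score), a p-value of a per-spot error model, and quality flags. The value table that the authors deposited equals the log10 ratio of the processed signals and served as an alternative; its scale is not stated.

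Features flagged as non-uniform or population outliers on either array (338) were dropped, and no feature was saturated. Each log ratio was converted to log2 of LO over control; a probe took the mean ratio and the median p of its spots; a probe was above background where a share over 0.5 of its spots was, as the software's flag gives it. The LO part is the mean and the dye part the half-difference of the arrays; the error of the LO part was propagated from the authors' error of the log ratio. A probe was selected where p was under 0.01 on both arrays in the same LO/control direction. A pool dim on both arrays was raised to the lowest signal rated above background (after Aquantile normalization), which gives a limit; no limit is printed, since it was under 1 or equal to the measured ratio. No test between conditions was made, since a pool was measured in 1 replicate, and the number of arrays limits the precision.

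Symbols came from a RefSeq table (GRCr8) through the accession of each feature, for 10758 of 41009 probes (8892 genes). Coordinates of the array's own build were not used. Values were given for each member above background in all 4 channels, for members past the p limit on an array, and for genes whose probes differed in background status or sign; the 3 highest and 3 lowest LO parts were described in full. The members, the wider list, the marker lists and the rules were chosen with earlier results of these data known. The alternatives were other p limits, Benjamini-Hochberg adjustment, filters, flagged features kept, each array alone, the value table, 1 value a gene, median centring, and normexp (offset 50) with loess, run on median signals because the files hold medians. The selection was also run on data simulated with larger differences than the LO part of any member and with capped spot errors. That run does not show how the rule fares on differences as small as those of the members. R 4.3.3 with limma 3.58.1 and Python 3.11.15 with numpy 2.4.6, pandas 2.3.3 and matplotlib 3.10.9 were used. The network analysis with IPA was not repeated.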

Additional observations from a re-analysis of the deposited data

How the results depend on the processing

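The counts of 0 members up-regulated and 0 down-regulated held at a p limit of 0.05 and with flagged features kept. They were also 0 at a p limit of 0.001, with Benjamini-Hochberg adjustment and with the background filter. The limit of 0.001, the adjustment and the filter can only remove probes from a selection, so counts of 0 could not change there. By 1 array alone, 0 to 2 members passed as higher in LO and 2 as lower (Il1a and Il6 lower and none higher on array 1; Il1a and Il6 higher and Il10ra and Il18 lower on array 2). The count past the limit towards the same dye was 2, and became 4 at 0.05, 0 at 0.001 and 0 with the background filter. The number of member genes above background went from 17 to 22 when 1 channel of each pool was enough and to 23 by the positive and significant flag. The shares over all probes at these other settings are not given, so the member counts there have no background beside them. The median LO part (-0.028) was -0.0997 with median centring, where all probes had a median of -0.07, and -0.0126 with normexp and loess; by 1 array alone it ran from -0.0757 to -0.0589. The SD of the dye part (0.220) was 0.372 with median centring, 0.126 with normexp and loess and 0.716 over all unflagged member probes, and that of the LO part (0.084) was 0.224 over all unflagged probes. The cause of these shifts was not tested. Of 28 single probes described, the sign of the LO part changed in 5 with normexp and loess and in 5 with median centring, and an LO part over 1.5-fold was found in 0 and 1 (Il1a). By array 2 alone the sign changed in 6 of the 28 and 5 were over 1.5-fold (Il10ra, Il18, Il1a, Il6 and Nfkb2), by array 1 alone in 14 and 4 (the same without Nfkb2), and with 1 value a gene the sign changed in 2 of 10.

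No paired analysis was possible because both arrays hold the same 2 pools, and each array already compares them within itself. Signal over background limits 12 of the 33 member probes, whose ratios set at least 1 signal near background against another. With 1 pool of rats per group, differences between rats cannot be told apart from differences between the treatments.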
